A study of Mus musculus with 48 samples.

Results

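The IL-10 cytokine family and its receptors were followed in mouse T cells that react to glatiramer acetate (GA), the active ingredient of the multiple sclerosis drug Copaxone. All probes annotated to Il10, Il19, Il20, Il22, Il24, Il10ra, Il10rb or Il22ra2 were taken, which gave 19 spots of 43020, 10 probes of 39430 after replicate spots were averaged, and 8 of 22485 genes. Each of 48 wells held Th2-455 cells, a nonclonal CD4+ line polarized to Th2 by 13 rounds of restimulation with Copaxone, together with naive Balb/c splenocytes as antigen-presenting cells (APCs). The line was raised from female Balb/c mice aged 8 to 12 weeks and immunized with Copaxone. Wells received 20 µg/mL of ACN (8 samples of 1 lot), Glatopa (16 samples of 4 lots) or Copaxone (17 samples of 9 lots), or Media with mannitol and no glatiramoid (7 samples), for 24 h on a single day. Glatopa is a generic GA, and ACN is a glatiramoid related to Copaxone and chemically distinct from it. Since all wells held a single T cell line, p-values measure only the spread between wells, and with ACN no spread between lots was measured.

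IL-10 restrains inflammation by acting on macrophages and dendritic cells, and Th2 cells are among its sources. It binds a receptor made of the IL-10-specific chain Il10ra and the chain Il10rb, which IL-22 and the lambda interferons also use, and signals through the kinases JAK1 and TYK2 to STAT3. IL-19, IL-20, IL-22 and IL-24 act mainly on epithelial cells, which carry receptor chains that most leukocytes lack. Il22ra2 encodes a secreted protein that binds IL-22 and blocks it.

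Values are log2 normalised intensities of a one-colour array, and a difference is that of the group means on this scale. A probe was called when limma's Benjamini-Hochberg adjusted p over all probes, two-sided, was under 0.05. Array medians lay between 4.95 and 5.02. Background flags of the scanner were not used, and the bottom of the scale was read from 18 genes of tissues the wells did not hold, such as the albumin gene Alb and the insulin gene Ins2. The group means of their 23 probes ran from 4.65 to 5.17 with ACN, 4.70 to 5.11 with Glatopa, 4.69 to 5.05 with Copaxone and 4.74 to 5.39 in Media. In every group the top of that range was the mean of the gene Oxt. Of 6 T cell markers, 5 lay above the range with ACN, 6 with Glatopa, 6 with Copaxone and 5 in Media. The marker inside it in ACN and Media was Cd4, at 5.14 and 5.17. After Oxt, the next tissue-foreign gene on its probe of highest mean was Ins2 with ACN (5.04) and Cryaa in Media (5.075). Cd4 was thus inside the range through Oxt, and it was not called with any glatiramoid.

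Il10 rose with all 3 glatiramoids, Il10rb was lower with all 3, and the remaining members either did not pass the test or lay at the bottom of the scale. With ACN, 2 of 10 member probes were called (1 higher, 1 lower), against 7.08% of all probes (3.73% higher, 3.36% lower). With Glatopa 2 of 10 were called (1 higher, 1 lower), against 18.9% of all probes (10.3% higher, 8.56% lower). With Copaxone 3 of 10 were called (1 higher, 2 lower), against 16.2% of all probes (8.71% higher, 7.46% lower). Counts out of 10 probes are too small to set against the share called across the array, so the results below concern single genes and not the family. The median difference of the 10 probes was -0.02 with ACN, -0.03 with Glatopa and 0.00 with Copaxone, next to medians between -0.005 and -0.003 over all probes.

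**Figure D1:**
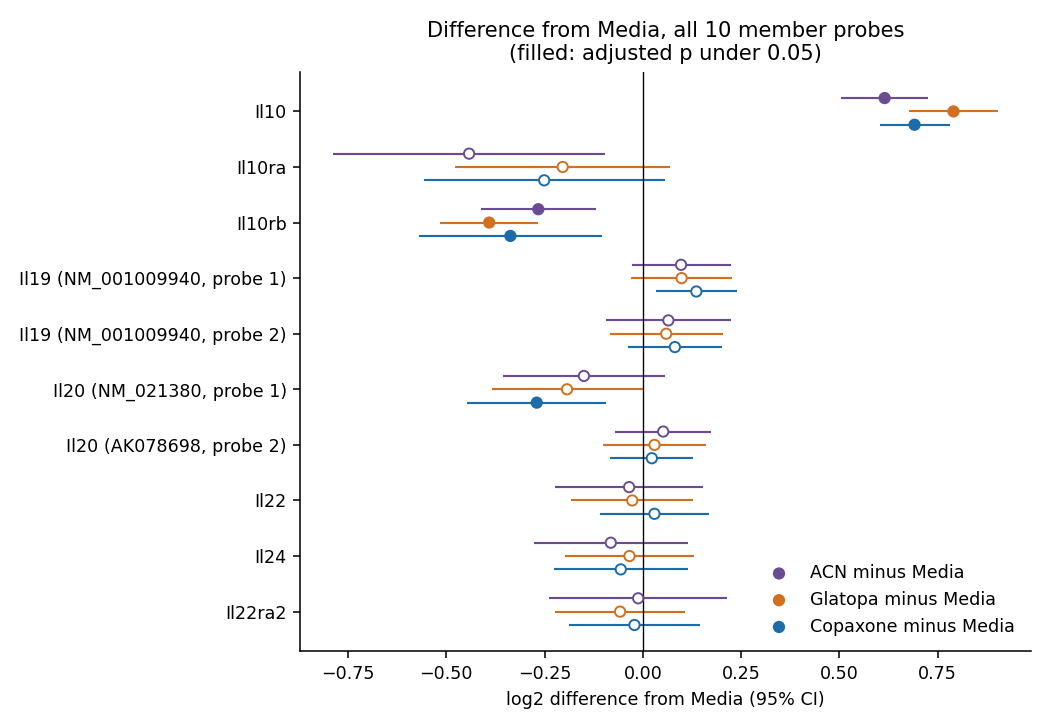
Difference from Media on the log2 scale (x axis) for each of the 10 member probes (rows), with 95% confidence intervals from limma as bars and filled points for an adjusted p under 0.05. Il10 is the member probe called higher with all 3 glatiramoids, with differences between 0.61 and 0.79, and Il10rb lies to the left with all 3, between -0.39 and -0.27.

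Il10 (gene ID 16153), the founding cytokine of the family, lies on chromosome 1 at 131019845 to 131024970 in GRCm38.p6, in a cluster with Il24, Il20 and Il19. The array carries it as 10 spots of a single sequence identifier, averaged here. With ACN the 8 samples ran from 5.38 to 5.66 (median 5.49), with Glatopa the 16 samples from 5.34 to 5.88 (median 5.65), with Copaxone the 17 samples from 5.38 to 5.77 (median 5.57), and the 7 Media samples from 4.82 to 4.97 (median 4.86). No treated sample overlapped the Media samples, a separation seen in 2.3% of all probes with ACN, 3.71% with Glatopa and 2.52% with Copaxone.

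Il10 averaged 5.49 ± 0.10 with ACN (SD, n = 8) and 4.87 ± 0.05 in Media (SD, n = 7), a 1.53-fold rise (log2 difference 0.61, SE 0.05, limma adjusted p = 1.02e-06). It averaged 5.66 ± 0.13 with Glatopa (SD, n = 16), a 1.73-fold rise over Media (log2 difference 0.79, SE 0.06, limma adjusted p = 4.25e-11). With Copaxone the mean was 5.57 ± 0.09 (SD, n = 17), a 1.61-fold rise over Media (log2 difference 0.69, SE 0.04, limma adjusted p = 6.6e-12). The Media mean lay inside the range of the tissue-foreign genes and the treated means lay above it, so the folds are ratios to a level near the bottom of the scale and may understate the change. All 3 calls were kept under every alternative that could be fitted, with differences from 0.57 to 0.63 for ACN, 0.74 to 0.82 for Glatopa and 0.64 to 0.73 for Copaxone.

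**Figure D2:**
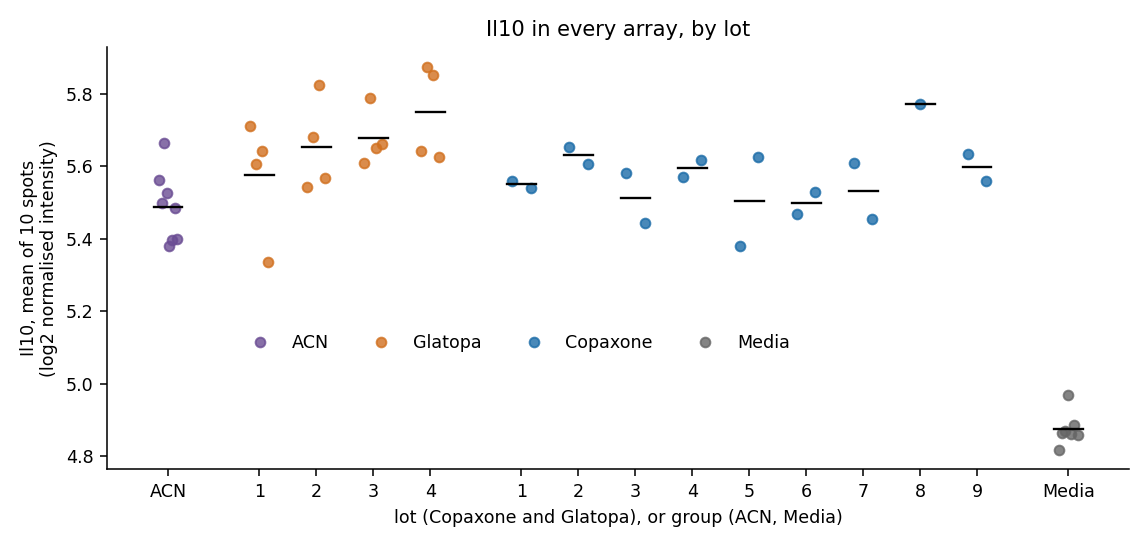
Il10, mean of 10 spots, in log2 normalised intensity (y axis) in each of the 48 arrays, with ACN in 1 column, Glatopa by its 4 lots, Copaxone by its 9 lots and Media in 1 column, and black lines for the column means. All treated arrays lie at or above 5.34 and all Media arrays at or below 4.97.

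The rise did not rest on a few spots. Each of the 10 spots was higher than in Media with each glatiramoid, by 0.44 to 0.83 with ACN, by 0.48 to 1.01 with Glatopa and by 0.39 to 0.94 with Copaxone. On a single array the 10 spots differed from each other by a median SD of 0.20 with ACN, 0.19 with Glatopa, 0.22 with Copaxone and 0.14 in Media. The SD between arrays of their average was 0.10 with ACN, 0.13 with Glatopa, 0.09 with Copaxone and 0.05 in Media, where the median SD of a single spot was 0.18 with ACN, 0.17 with Glatopa, 0.19 with Copaxone and 0.15 in Media. The gain from averaging was thus small with Glatopa, and the other members, with 1 spot per probe, have none.

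**Figure D3:**
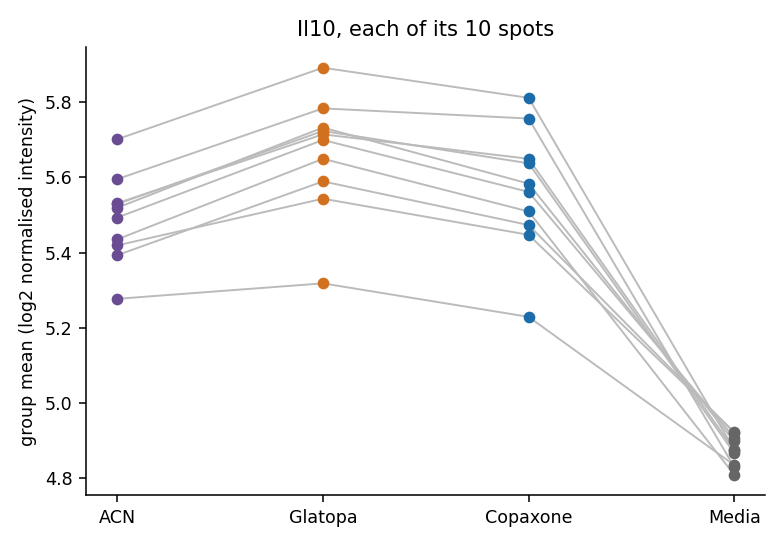
Group mean of each of the 10 Il10 spots in log2 normalised intensity (y axis) with ACN, Glatopa, Copaxone and in Media, with grey lines joining the same spot. Every spot is lowest in Media, and the treated means of single spots range from 5.23 to 5.89.

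Among the glatiramoids at the same dose and time, Il10 was in the order Glatopa, Copaxone, ACN and then Media, and none of the steps between glatiramoids passed the test. ACN was below Glatopa by 0.17 (95% CI -0.29 to -0.06), with an unadjusted p of 0.00364 and a limma adjusted p of 0.157. ACN and Copaxone differed by -0.08 (95% CI -0.17 to 0.01, limma adjusted p = 0.717). Glatopa and Copaxone differed by 0.10 (95% CI 0.02 to 0.18), with an unadjusted p of 0.0218 and a limma adjusted p of 0.995. With the lot as a random block the step between ACN and Glatopa had a limma adjusted p of 0.036 (log2 difference -0.17), whereas its adjusted p over all alternatives ran up to 0.566. ACN is 1 lot, so that fit holds no spread between ACN lots, and no difference is read from it. In these comparisons 0 of 10 member probes were called in limma for ACN against Copaxone (0.112% of all probes), ACN against Glatopa (0.68%) and Glatopa against Copaxone (0%), and 0, 3 and 1 of the 10 had an unadjusted p under 0.05. For ACN against Glatopa those 3 were Il10, Il10ra and Il10rb.

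Lots were compared within each product. The lot means of Il10 ran from 5.58 in Glatopa lot 1 to 5.75 in lot 4, with 4 samples each. In Copaxone they ran from 5.50 in lot 6, with 2 samples, to 5.77 in lot 8, which has a single sample. Il10 did not differ between lots beyond the spread within lots at the threshold (limma F = 1.18, unadjusted p = 0.348 for Glatopa, and F = 0.864, unadjusted p = 0.572 for Copaxone). Of the 10 member probes 0 were called between Glatopa lots in limma (0% of all probes) and 0 between Copaxone lots (0.0254% of all probes), and 0 had an unadjusted p under 0.05 in either product. Across the array 1555 probes did between Glatopa lots and 1340 between Copaxone lots.

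Il10rb (gene ID 16155), the shared receptor chain, lies on chromosome 16 at 91406157 to 91425834 in GRCm38.p6, between the interferon receptor genes Ifnar2 and Ifnar1. With ACN it ran from 6.43 to 6.81 (median 6.62), with Glatopa from 6.24 to 6.68 (median 6.48), with Copaxone from 5.75 to 7.05 (median 6.61), and in Media from 6.67 to 7.12 (median 6.85). Below the lowest Media sample lay 7 of 8 ACN samples, 15 of 16 Glatopa samples and 12 of 17 Copaxone samples. The widest spread was in Copaxone, with lot 9 replicate 2 at 5.75 and lot 3 replicate 2 at 7.05.

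Il10rb averaged 6.61 ± 0.11 with ACN (SD, n = 8) and 6.88 ± 0.14 in Media (SD, n = 7), a log2 difference of -0.27 (SE 0.07, limma adjusted p = 0.0261). With Glatopa it averaged 6.49 ± 0.13 (SD, n = 16), a difference of -0.39 from Media (SE 0.06, limma adjusted p = 1.92e-05), which is a 1.31-fold fall. With Copaxone it averaged 6.54 ± 0.30 (SD, n = 17), a difference of -0.34 (SE 0.11, limma adjusted p = 0.0402). The Glatopa call was kept when any lot or Media sample was left out. The Copaxone call was lost in 10 of 16 such fits, without Copaxone lots 2, 4, 6 or 7 or without Media replicates 1, 2, 3, 5, 6 or 7, with adjusted p from 0.0516 to 0.103. The ACN call was lost in 5 of 15, without ACN replicates 3 or 6 or Media replicates 1, 2 or 5, with adjusted p from 0.0502 to 0.0548. In the fits that lost the call the difference stayed between -0.26 and -0.23 with ACN and between -0.35 and -0.30 with Copaxone.

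Il10ra (gene ID 16154), the IL-10-specific chain on chromosome 9 at 45253837 to 45269149 in GRCm38.p6, was not called with any glatiramoid. Samples ran from 5.88 to 6.68 with ACN (median 6.17), from 5.84 to 6.92 with Glatopa (median 6.50), from 5.63 to 6.88 with Copaxone (median 6.55) and from 6.06 to 7.05 in Media (median 6.87). The Media samples fell apart, with replicates 1 and 6 at 6.06 and 6.18 and the other 5 between 6.82 and 7.05. Differences from Media were -0.44 with ACN (95% CI -0.79 to -0.10, limma adjusted p = 0.133), -0.20 with Glatopa (95% CI -0.48 to 0.07, limma adjusted p = 0.36) and -0.25 with Copaxone (95% CI -0.56 to 0.06, limma adjusted p = 0.322). When 1 ACN or Media sample was left out, the ACN difference passed in 1 of 15 fits. That fit was the one without Media replicate 1 (-0.55, limma adjusted p = 0.0325), and over the 15 the adjusted p ran up to 0.245.

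Among glatiramoids, ACN and Glatopa differed by -0.24 for Il10ra (95% CI -0.46 to -0.01, limma adjusted p = 0.428) and by 0.12 for Il10rb (95% CI 0.01 to 0.24, limma adjusted p = 0.385). ACN and Copaxone differed by -0.19 for Il10ra (95% CI -0.45 to 0.07) and by 0.07 for Il10rb (95% CI -0.14 to 0.29). Glatopa and Copaxone differed by 0.05 for Il10ra (95% CI -0.16 to 0.25) and by -0.05 for Il10rb (95% CI -0.21 to 0.10).

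**Figure D4:**
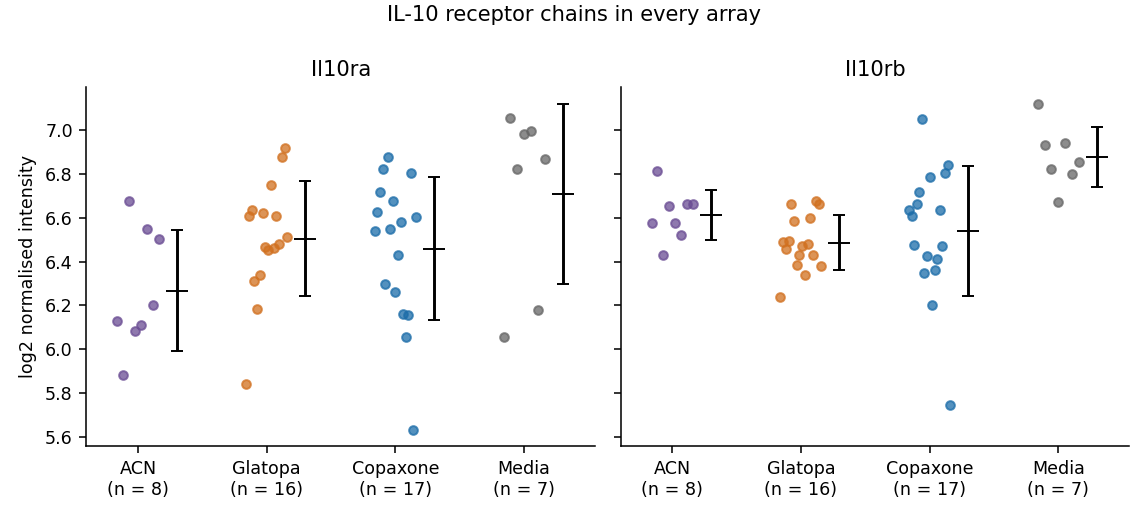
Il10ra and Il10rb in log2 normalised intensity (y axis) in every array with ACN, Glatopa, Copaxone and in Media, with the group mean ± SD to the right of each column. For Il10ra 2 of 7 Media arrays lie at 6.06 and 6.18 among the treated arrays, and for Il10rb the lowest Media array lies at 6.67.

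Some markers of cells that carry IL-10 receptors moved in the same wells. Among all genes 4.5% were higher and 4.22% lower with ACN, 12.2% and 9.71% with Glatopa, and 10.1% and 8.45% with Copaxone. Of 9 macrophage and monocyte markers, 4 were lower with ACN, 4 with Glatopa and 4 with Copaxone, and 0 were higher with any of them. Above the range of the tissue-foreign genes lay 7 of these 9 with ACN, 8 with Glatopa, 8 with Copaxone and 6 in Media. Their mean level per sample ran from 6.99 to 7.28 with ACN, 6.60 to 7.02 with Glatopa and 6.71 to 7.08 with Copaxone, against 7.33 to 7.81 in Media, so no treated sample reached the Media samples. Of 6 T cell markers, 3 were lower with ACN, 5 with Glatopa and 3 with Copaxone, and 0 were higher. Their mean level averaged 7.43 with ACN, 7.44 with Glatopa and 7.40 with Copaxone, against 8.03 in Media. Of 7 B cell markers, 2 were higher and 0 lower with ACN, 3 higher and 2 lower with Glatopa, and 2 higher and 1 lower with Copaxone. One of them, Cr2, was lower by 1.87 with Glatopa and 1.95 with Copaxone. With ACN it was not called, although 7 of 8 samples lay below all Media samples and 1 above all of them (SD 2.69). The part of these markers in the lower Il10rb was not tested, and in RNA of whole wells fewer cells of a type and less RNA per cell cannot be told apart.

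Il19, Il20 and Il24, which signal through receptors containing Il20rb, lie on chromosome 1 beside Il10, at 130932656 to 130945457, 130906985 to 130911296 and 130882074 to 130887411 in GRCm38.p6. Il22, a cytokine of epithelial defence, lies on chromosome 10 at 118204584 to 118210047, and Il22ra2, its soluble inhibitor, on chromosome 10 at 19622028 to 19634681. The 7 probes of these 5 genes ran from 4.34 to 5.49 over all samples, and their group means lay within or below the range of the tissue-foreign genes in all 4 groups. In 44 of 48 arrays at least 2 of the 7 held exactly the same deposited value. RNA of these 5 genes was thus not detectable above the bottom of the scale with ACN, Glatopa, Copaxone or Media, which does not show that it was absent.

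Within that range 1 call was made. Probe 1 of Il20 averaged 4.73 ± 0.17 with Copaxone (SD, n = 17) and 5.00 ± 0.26 in Media (SD, n = 7), a log2 difference of -0.27 (SE 0.09, limma adjusted p = 0.0303). Probe 2 of Il20 averaged 4.85 ± 0.10 with Copaxone and 4.83 ± 0.12 in Media (log2 difference 0.02, limma adjusted p = 0.854), so the probes of this gene disagreed. Media replicate 6 stood highest on probe 1, at 5.49. The call was lost without Copaxone lot 6 or Media replicates 2, 4 or 6, with adjusted p from 0.0535 to 0.114, and the same probe was not called with ACN (-0.15, limma adjusted p = 0.493) or Glatopa (-0.19, limma adjusted p = 0.179). Of the other 6 probes, both of Il19 had positive differences with all 3 glatiramoids (0.06 to 0.14) and 0 of them were called, the smallest adjusted p being 0.0677 for probe 1 with Copaxone.

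**Figure D5:**
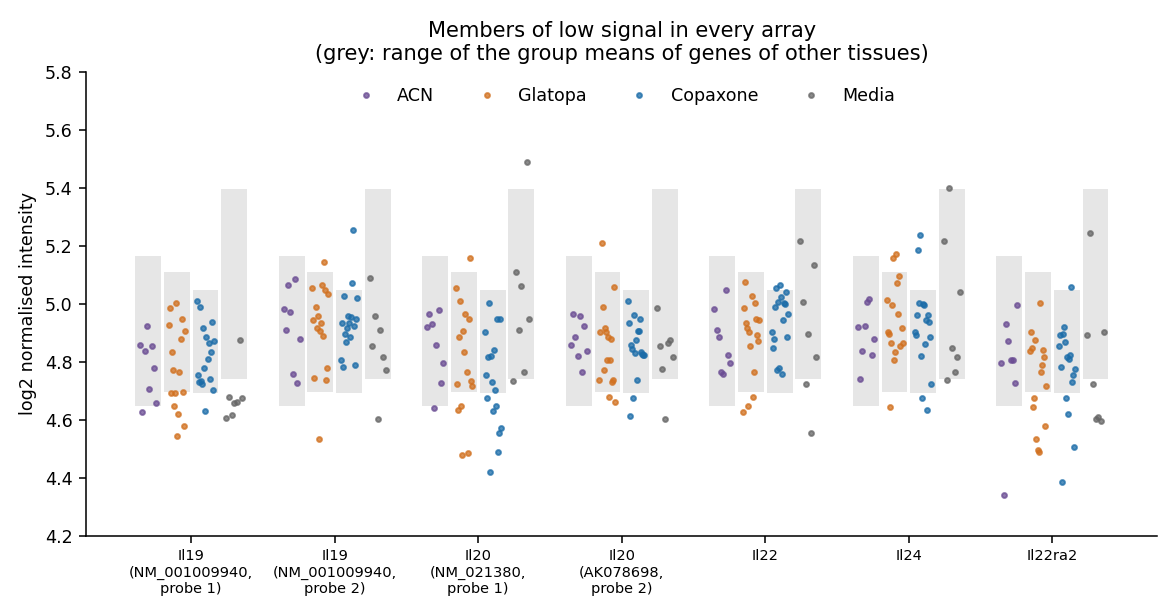
The 7 probes of Il19, Il20, Il22, Il24 and Il22ra2 in log2 normalised intensity (y axis) in every array with ACN, Glatopa, Copaxone and in Media, with grey bands for the range of group means of genes of tissues the wells did not hold. Nearly all points lie within or below the bands, and Media replicate 6 on Il20 probe 1 lies above its band at 5.49.

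The Il22 value may have a further limit, the gene Iltifb, a near copy of Il22 also called IL-22b. In the reference assembly GRCm38.p6 it lies near Il22 on chromosome 10, at 118289629 to 118295038. In RefSeq windows around the gene starts (GRCm38.p6), Il22 and Iltifb share a stretch of 102 bases with 98 identical (96.1%), and the first 30 bases are shown with the differing bases in capitals as an example of that likeness. The 30 bases shown lie inside the annotated Il22 gene but upstream of the annotated start of Iltifb. They are thus genomic sequence beside Iltifb and not part of its transcript as annotated. The other end of the 102-base stretch, at 118294994, lies inside the annotated Iltifb gene. The Il22 bases are at chr10:118204885-118204914 on the plus strand and those of Iltifb at chr10:118295066-118295095 on the minus strand.
Il22: taccatgctacccgacgaAcatgCtcccct
Iltifb: taccatgctacccgacgaGcatgTtcccct
Probe sequences were not used here, and whether these Balb/c cells carry Iltifb was not examined. Whether RNA of both genes reaches the Il22 probe is thus unknown. The probes annotated to Iltifb were as low as that of Il22, with means of 4.79 and 4.76 with ACN, 4.83 and 4.80 with Glatopa, 4.78 and 4.83 with Copaxone and 4.83 and 4.92 in Media. Of the 8 members, 3 (Il19, Il20 and Il22) had a start window in the RefSeq table.

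Deviations of the members from their group means were compared over the 48 samples to ask whether members varied together from well to well. Of 28 pairs of member genes, 0 passed after Benjamini-Hochberg adjustment over the 28, and 2 had an unadjusted p under 0.05 for Pearson's r (permutation within groups). For Il10 and Il10ra, Pearson's r was 0.275 (permutation p = 0.0477, adjusted p = 0.57) and Spearman's rho was 0.254 (permutation p = 0.0826, adjusted p = 0.702). Without the 2 samples whose Il10 level lay farthest from its median over all samples, r was 0.265. Those 2 are Media wells, picked by level and not by deviation, so this r does not show whether outlying deviations carry the correlation. Within groups r was 0.114 for ACN, 0.522 for Glatopa, 0.112 for Copaxone and 0.408 for Media. After removal of the first component of the within-group deviations, which held 12% of their variance and on which 4 arrays scored above 0.3, this pair passed (r = 0.458, permutation p = 0.00104, adjusted p = 0.0291). The other pair was Il10ra and Il19 (r = -0.295, permutation p = 0.0479, adjusted p = 0.57), with Il19 at the bottom of the scale. The receptor chains Il10ra and Il10rb had r = -0.0845 (permutation p = 0.592, adjusted p = 0.913).

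The genes whose levels were most like those of Il10 over the 48 samples were the Th2 cytokine gene Il4 (r = 0.939), the growth factor gene Il3 (r = 0.927) and Penk, the enkephalin precursor (r = 0.926). These values mostly carry the step between treated and Media wells that the samples share: for deviations from group means r was 0.365 for Il4, 0.235 for Il3 and 0.338 for Penk. Il4 was higher by 2.07 with ACN, 2.60 with Glatopa and 2.43 with Copaxone. Il10rb was most like the predicted gene Gm8973 (r = 0.825), Ephx1, an epoxide hydrolase (r = 0.794), and Use1, a protein of vesicle transport (r = 0.791), and here r of the deviations stayed at 0.848, 0.703 and 0.696. Ephx1 and Use1 were lower with Copaxone by 0.81 and 0.67 (limma adjusted p = 0.000277 and 0.000617), and Gm8973 was not called (-0.16, limma adjusted p = 0.62).

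Other genes of the pathway were counted on the probe with the highest mean, next to all genes, of which 4.5% were higher and 4.22% lower with ACN, 12.2% and 9.71% with Glatopa, and 10.1% and 8.45% with Copaxone. Among 6 other ligands and receptor chains of the family, 0 were higher with any glatiramoid. Ifnlr1, the lambda interferon chain that pairs with Il10rb, was called lower with Glatopa (-0.26, limma adjusted p = 0.000677) and Copaxone (-0.27, limma adjusted p = 0.00243) and was not called with ACN (-0.18, limma adjusted p = 0.18). Its means of 4.94 with ACN, 4.86 with Glatopa, 4.85 with Copaxone and 5.12 in Media all lay inside the range of the tissue-foreign genes. In Media this held through Oxt (5.39), the top of that range, and Cryaa, the next of those genes, was at 5.075. Oxt was itself called lower with Glatopa (-0.28) and Copaxone (-0.34). The Ifnlr1 calls thus lie near the bottom of the scale, and no change of Ifnlr1 is read from them. Il20ra, Il20rb and Il22ra1, chains of the epithelial receptors, were not called in any comparison with Media. Among 4 chains of the interferon receptors in gene clusters with members, 1 was lower with ACN, 2 with Glatopa and 1 with Copaxone, and 0 were higher. Ifnar2, beside Il10rb, was lower with all 3, by 0.44 with ACN, 0.46 with Glatopa and 0.43 with Copaxone (limma adjusted p = 0.00489, 4.6e-05 and 1.48e-05). Ifnar1, on its other side, was lower with Glatopa alone (-0.38, limma adjusted p = 0.00246), with differences of -0.37 for ACN (limma adjusted p = 0.0531) and -0.26 for Copaxone (limma adjusted p = 0.0774). Whether Ifnar1 differed between the glatiramoids in its change from Media was not tested as a difference of changes.

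Of 8 genes of JAK-STAT signalling below the receptors, 2 were higher and 1 lower with ACN, 4 higher and 1 lower with Glatopa, and 2 higher and 1 lower with Copaxone. Jak1, the kinase bound to Il10ra, was lower by 0.32 with ACN, 0.54 with Glatopa and 0.40 with Copaxone (limma adjusted p = 0.0235, 7.29e-05 and 0.0223). Stat5a, which carries the signals of IL-2 and other growth factors, was higher with Glatopa by 0.92 (limma adjusted p = 0.00255) and was not called with ACN (0.98, limma adjusted p = 0.0559) or Copaxone (0.87, limma adjusted p = 0.0504). Stat3, which carries the IL-10 signal, was higher with Glatopa (0.23, limma adjusted p = 0.0139) and was not called with ACN (0.15, limma adjusted p = 0.202) or Copaxone (0.18, limma adjusted p = 0.0954). Neither Stat5a nor Stat3 was called between glatiramoids. Glatopa minus Copaxone was 0.04 for Stat5a and 0.05 for Stat3 (limma adjusted p = 0.996 and 0.995), so no response particular to Glatopa is read from these calls. Socs3, a feedback inhibitor that IL-10 and other cytokines induce through STAT3, was higher by 0.79 with ACN, 1.12 with Glatopa and 0.95 with Copaxone. Socs1, a feedback inhibitor that also answers IL-4 and interferons, was higher by 2.05 with ACN, 2.29 with Glatopa and 2.32 with Copaxone.

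Transcription factors known to act on Il10 were more often higher than lower. Of 20 measured, 5 were higher and 1 lower with ACN, 8 higher and 3 lower with Glatopa, and 7 higher and 1 lower with Copaxone. The largest changes were in Nfil3, a leucine zipper factor that raises IL-10 in T cells, at 2.62 with ACN, 2.84 with Glatopa and 2.66 with Copaxone. Egr2, a factor of activated and tolerant T cells, was higher by 1.29, 1.42 and 1.39 with ACN, Glatopa and Copaxone. Batf, an AP-1 partner in T cell differentiation, was higher by 0.77, 0.89 and 0.87 with ACN, Glatopa and Copaxone, and Jun, an AP-1 subunit, by 1.02, 1.35 and 0.95. Maf, a direct activator of Il10 in T cells, was not called with ACN (0.08, limma adjusted p = 0.772), Glatopa (-0.03, limma adjusted p = 0.91) or Copaxone (0.04, limma adjusted p = 0.794), and Gata3, the Th2 master regulator, was not called with any of them. Stat4, the IL-12 signal carrier, was lower by 0.35 with ACN, 0.28 with Glatopa and 0.29 with Copaxone.

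Genes that IL-10 is known to induce in macrophages moved in both directions. Of 15 measured, 4 were higher and 2 lower with ACN, 6 higher and 2 lower with Glatopa, and 7 higher and 2 lower with Copaxone. The higher genes include Nfil3 and Socs3, which are also counted above among transcription factors and signalling genes, and with Copaxone Cd163, whose means lay at the bottom of the scale. Bcl3, a nuclear partner of NF-kappaB, was higher by 0.61 with ACN, 0.86 with Glatopa and 0.88 with Copaxone, and Sbno2, a corepressor, was higher with Glatopa and Copaxone (0.62 each) and was not called with ACN (0.59, limma adjusted p = 0.0672). Fcgr1, a high-affinity Fc receptor of macrophages, was lower by 0.87 with ACN, 0.92 with Glatopa and 0.93 with Copaxone, and Ddit4, an inhibitor of mTOR, by 0.85, 0.92 and 0.87. Of 14 inflammatory genes that IL-10 is known to repress in macrophages, 4 were higher and 1 lower with ACN, 6 higher and 3 lower with Glatopa, and 5 higher and 3 lower with Copaxone. The lower genes with Glatopa and Copaxone include Il12b, whose means of 4.89 with each and 5.02 in Media lay at the bottom of the scale. Ccl3, a chemokine, was higher with Glatopa by 1.67 (limma adjusted p = 5.62e-07) and was not called with ACN (0.41, limma adjusted p = 0.674) or Copaxone (1.17, limma adjusted p = 0.0576). ACN was below Glatopa for it (-1.27, limma adjusted p = 0.0426). Its samples were split: 14 of 17 with Copaxone lay above all Media samples and 3 below all of them. With ACN 5 of 8 lay above and 2 below, so these results depend on a few low arrays. Il6, an inflammatory cytokine that Th2 cells and APCs can make, was higher by 1.08 with ACN, 1.26 with Glatopa and 1.13 with Copaxone, and the chemokine Ccl4 by 1.03, 1.22 and 1.29. Cxcl10, an interferon-induced chemokine, was lower by 0.62 with ACN, 0.83 with Glatopa and 0.83 with Copaxone. Cd80, a costimulatory ligand of APCs, was lower with Glatopa (-0.73) and Copaxone (-0.70) and was not called with ACN (-0.34, limma adjusted p = 0.219). Of the 9 macrophage and monocyte markers above, 4 were lower with each glatiramoid in the same wells. The part of these markers in the counts was not tested.

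Il10 was set beside 8 Th2 cytokine genes, of which 5 were higher with ACN, 6 with Glatopa and 6 with Copaxone, and 0 were lower. The largest changes were in Il13, at 3.65 with ACN, 4.04 with Glatopa and 4.07 with Copaxone, and Il3, at 2.93, 3.87 and 3.68. Between glatiramoids, ACN was lower than Glatopa for Il3 (-0.94, limma adjusted p = 0.000219) and Il4 (-0.54, limma adjusted p = 0.00031). It was also lower than Copaxone for Il3 (-0.75, limma adjusted p = 0.00177) and Il4 (-0.36, limma adjusted p = 0.0342). The Il10 differences had the same sign (-0.175 from Glatopa, -0.08 from Copaxone) and were not called. Whether Il10 differed from Il3 and Il4 in these steps was not tested. Of 10 chromosome neighbours of members, 1 was higher and 1 lower with ACN, 3 higher and 2 lower with Glatopa, and 3 higher and 2 lower with Copaxone. Ifng, the Th1 cytokine gene beside Iltifb and Il22, was higher by 0.54 with ACN, 1.12 with Glatopa and 1.06 with Copaxone, with ACN below both Glatopa (-0.58, limma adjusted p = 0.00798) and Copaxone (-0.52, limma adjusted p = 0.0359). Fcmr, an IgM receptor gene on one side of the Il10 cluster, was lower by 1.02 with ACN, 1.37 with Glatopa and 1.32 with Copaxone. Mapkapk2, a stress kinase gene on the other side, was not called with any of them.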

How the data were processed

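RNA of 48 wells was hybridized with Cy3 to one-colour Agilent mouse arrays. The deposited log2 values were made by the authors, who corrected background with normexp and quantile-normalized all arrays in limma (version not given in the sources used here). They run from 3.04 to 15.4. Where 10 or more spots shared symbol and identifier (387 groups), they were averaged to 1 probe. Of the probes 9994 carry no symbol. Pairs of groups were compared with limma 3.58.1 (lmFit, eBayes; R 4.3.3, data.table version 1.17.8) on the samples of these groups alone. Lots were compared with limma's F, and pairs of members with 100000 permutations within groups. The number of arrays limits the precision. The fits were tested on simulated data.

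Members, gene lists and tests were chosen with earlier results of these data known. Every member probe is named, then genes of each list from among the largest called changes against Media (up to 4 per comparison, not all of them named), the genes most like a called member, and a few others chosen after their values were seen. Other marker lists (dendritic, NK and neutrophil) are given in the closing section.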

Additional observations from a re-analysis of the deposited data

Results flagged for a closer look

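In 2 of 20 combinations of a member probe with ACN or Media, a sample stood apart from the rest of its group by Dixon's criterion at 95%, and chance alone marks about 1 in 20 such combinations. Il22ra2 was at 4.34 in ACN replicate 2, the lowest of 8 ACN samples, with the next at 4.73 and the highest at 4.99. Il19 probe 1 was at 4.88 in Media replicate 6, the highest of 7 Media samples, with the next at 4.68 and the lowest at 4.61. Both probes were at the bottom of the scale. Groups of more than 10 samples were not tested in this way.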

How the results depend on the processing

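Calls of Il10 against Media were kept under all alternatives that could be fitted, and so was Il10rb with Glatopa. With the replicate block, 1 member probe was called for ACN minus Media and 1 for Copaxone minus Media, and the replicate block changed no other count. Deviations of samples with the same number correlated between -0.467 and 0.178, above 0.1 for 0 of 7 numbers with ACN, 1 of 4 with Glatopa and 1 of 2 with Copaxone, each against Media, so the numbers were not taken as pairs. For ACN minus Media, 1 was called with all 4 groups in one fit and 1 with an intensity trend, where Il10rb had an adjusted p of 0.109 and 0.104, and the cause was not tested. For Il10rb with Copaxone the methods' t-test gave an adjusted p of 0.0574. Unaveraged spots gave 11 called with ACN, 11 with Glatopa and 12 with Copaxone, of 19, since Il10 then counts 10 times. With the lot as a random block 1 was called for ACN minus Glatopa, a fit without spread between ACN lots. Leaving out 1 lot or sample gave 1 to 2 called for ACN and 1 to 3 for Copaxone against Media. Among pairs of members, 1 passed after removal of the first within-group component, Il10 with Il10ra. Leaving out the 4 arrays that scored above 0.3 on it, chosen after seeing the data, gave 2 called with ACN, 2 with Glatopa and 4 with Copaxone. The difference of Il10ra between Glatopa and Copaxone, never called, changed sign in 4 settings: -0.0234 with the replicate block, -0.0524 without those 4 arrays, -0.0177 without Glatopa lot 4 and -0.000239 without Copaxone lot 7, with a range of -0.0177 to 0.0987 when 1 lot was left out. A lot block was not run for ACN minus Media, where ACN is 1 lot and Media has none. With 1 spot for most members and no signal over background, changes at the bottom of the scale could not be measured.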

Other observations

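Markers of other leukocytes did not all move one way. Among all genes 4.5% were higher and 4.22% lower with ACN, 12.2% and 9.71% with Glatopa, and 10.1% and 8.45% with Copaxone. Of 6 neutrophil markers, 1 was lower with ACN, 2 with Glatopa and 3 with Copaxone, and 0 were higher. Their mean level was 6.29 with ACN, 6.08 with Glatopa and 6.13 with Copaxone, against 6.47 in Media. Of 6 dendritic cell markers, 1 was higher and 1 lower with each glatiramoid: Itgax, an integrin of dendritic cells and macrophages, was higher, and Flt3, a receptor of dendritic cell growth, was lower. Of 4 NK cell markers, 0 were higher with ACN, 1 with Glatopa and 1 with Copaxone, and 0 were lower. Above the range of the tissue-foreign genes lay 1 of these 4 with each glatiramoid and 0 in Media. Of the 6 dendritic cell markers 3 did with each glatiramoid and 2 in Media, where Itgax was inside the range at 5.03. Of the 6 neutrophil markers 4 did with ACN, 3 with Glatopa, 4 with Copaxone and 3 in Media. Markers inside the range that were not called cannot be read as unchanged.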
